A study of Mus musculus with 6 samples.

Results

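Chemokines are small secreted proteins that guide blood cells along gradients, and their receptors are G-protein-coupled receptors on the responding cell. The genes described here are the 71 rows of the deposited gene table whose symbol starts with Ccl, Cxcl, Cx3cl, Xcl, Ccr, Cxcr, Cx3cr, Xcr or Ackr followed by a digit, out of 55487 rows in all. They comprise 65 distinct symbols, 48 rows of ligands and 23 rows of receptors. A row was tested where at least 3 of the 6 libraries held at least 10 counts, which 26 rows met, and the other 45 are listed as not expressed. The 3 tested rows nearest to that limit were Cxcl9, Xcl1 and Cxcl16, and the rows just under it with the most counts were Ackr3, Ackr1 and Cxcl12. No member passed through the libraries of a single genotype.

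Poly-A transcripts were sequenced from LSK cells, a marrow stem and progenitor population defined as lineage-negative, Sca-1-positive and Kit-positive. The Mc5r-null group (3 libraries) came from Mc5r-/- mice, which lack the melanocortin 5 receptor, and the wild-type group (WT, 3 libraries) from littermates. Both groups were irradiated according to the series, with dose, time, age and the nature of the mutant allele not given in the sources used here. Nothing says that the libraries came from separate mice or how many mice went into each, so the p-values speak only of variation among these libraries, and that variation may be technical.

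In bone marrow, Cxcl12 made by stromal cells holds stem and progenitor cells in place through Cxcr4, while Cxcr2 and its ligands draw neutrophils out and Ccl2 and Ccr2 draw monocytes out. Ligands of the inflammatory CC and ELR CXC groups, named for the Glu-Leu-Arg motif of the second group, are made by activated myeloid cells, and Ccl3 has been described as a negative regulator of progenitor proliferation. Atypical receptors (Ackr) bind chemokines without G-protein signalling and clear or transport them.

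Gene counts summed to 13983016 to 14076870 in the Mc5r-null libraries and to 14903723 to 14953169 in the WT libraries. Mc5r itself had 0, 0 and 1 counts in the Mc5r-null libraries, against 181, 157 and 198 in the WT libraries. The LSK markers Kit and Ly6a (Sca-1) were present in every library, with Kit at 259 ± 4.38 normalised CPM in Mc5r-null and 238 ± 2.60 in WT (SD, n = 3 each). Normalised CPM are CPM taken over the library size after TMM scaling. Markers of lineage-positive cells were also present, and immunoglobulin genes took 6.86% to 6.96% of counts in Mc5r-null libraries and 2.15% in each WT library. Xist had 0, 2 and 2 counts in Mc5r-null libraries, against 1224, 1167 and 1281 in WT libraries. The Y-linked Ddx3y (1133 to 1196 counts against 755 to 1130), Kdm5d (309 to 343 against 288 to 315), Eif2s3y (752 to 880 against 857 to 910) and Uty (174 to 198 against 160 to 190) were present in all 6. The makeup by sex therefore differed with the genotype, and effects of sex and of genotype cannot be told apart. In bulk RNA, fewer cells of a type and less RNA per cell cannot be told apart either.

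The transcripts of this family were few and dominated by 6 genes. Together the members held 0.0661% to 0.0663% of all counts in Mc5r-null libraries and 0.0745% to 0.0766% in WT libraries. Ccl3, Ccl4, Ccl9, Cxcl2, Cxcl10 and Cxcr4 made up 85.3% to 86.8% of the members' counts in Mc5r-null and 83.8% to 85.1% in WT. Levels of different genes were compared as normalised CPM per kb of merged exons. On that scale Ccl3 came first with 203 ± 3.78 in Mc5r-null and 178 ± 1.28 in WT, followed by Ccl4 with 132 ± 1.45 in Mc5r-null and 117 ± 3.55 in WT. Cxcr4 was the third in both genotypes, with 53.0 ± 0.696 in Mc5r-null and 66.0 ± 1.59 in WT (SD, n = 3 each). Cxcl2 was the fourth in Mc5r-null, at 42.8 ± 2.39, ahead of Ccl9 at 30.0 ± 0.583. In WT the pair was in the other order, with Ccl9 at 47.5 ± 0.401 and Cxcl2 at 46.2 ± 0.862, and these WT ranges lay close together without overlapping. The order of this pair depends on the exon lengths used. Before division by length, the mean of Ccl9 was above that of Cxcl2 in both genotypes. Cxcl10 followed at 25.5 ± 2.01 in Mc5r-null and 24.4 ± 1.69 in WT. These 6 genes did not overlap with their neighbours in the order in either genotype. All other tested members were at or below 4.72 in Mc5r-null (Ccl6) and 5.84 in WT (Ccr2), and most neighbours among them did overlap. Ccr10 was the eighth in Mc5r-null at 4.52 and lower in the order in WT at 1.82, whereas Ccr2 stood at 2.66 in Mc5r-null and 5.84 in WT.

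**Figure D1:**
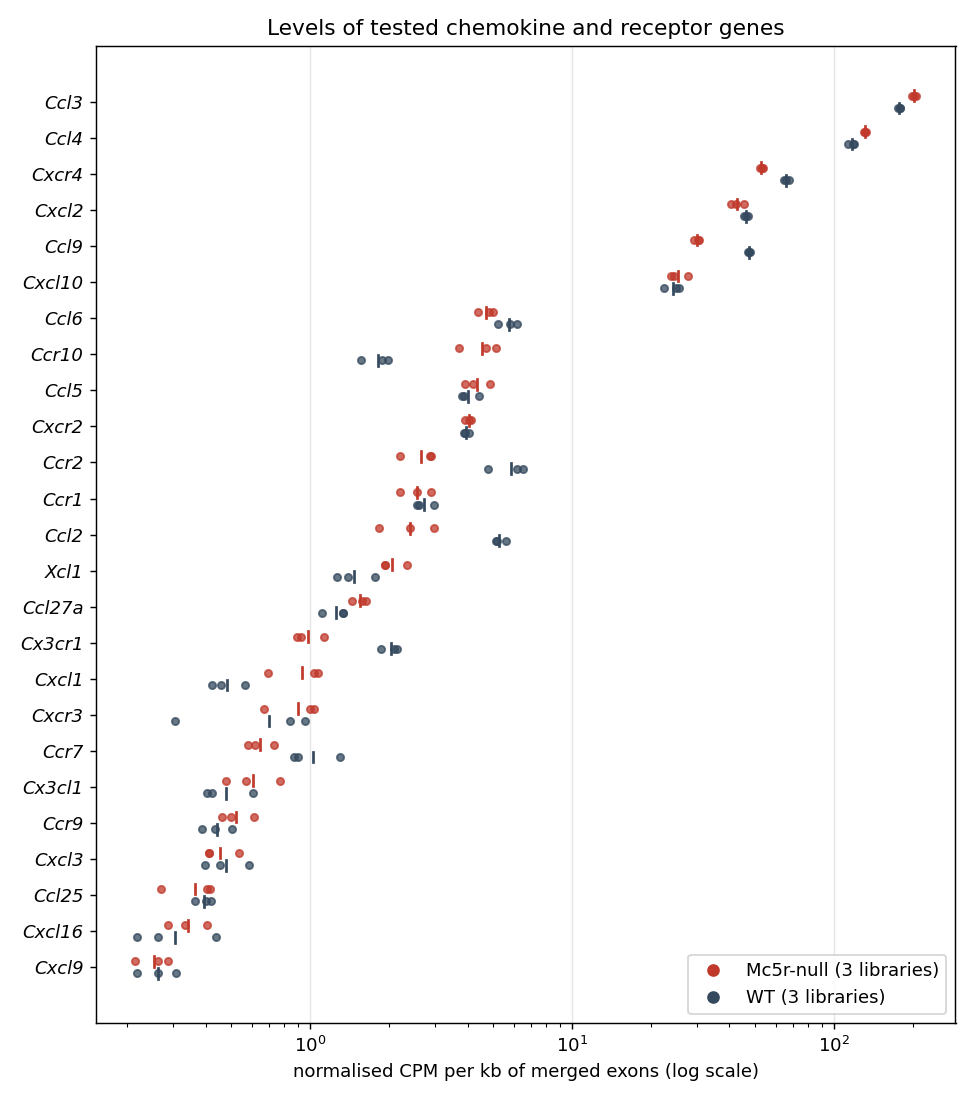
Levels of tested members in every library, in normalised CPM per kb of merged exons on a log axis, with Mc5r-null points above WT points and a vertical tick at each mean. Ccl3, Ccl4, Cxcr4, Cxcl2, Ccl9 and Cxcl10 lie above 22.5 in every library, all other members below 6.54.

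Of the 26 tested members, 9 (34.6%) passed an adjusted p of 0.05 in edgeR's quasi-likelihood test with Benjamini-Hochberg adjustment over all 15348 genes tested, the test behind every adjusted p given here unless another is named. Among all genes tested, 32.8% passed, so the share of members was near the background. Ccr10, Cxcl1, Ccl3 and Ccl4 were higher in Mc5r-null (15.4% of members, against 16.7% of all genes), and Ccl2, Ccr2, Cx3cr1, Ccl9 and Cxcr4 were lower (19.2%, against 16.0% of all genes). The median log2 fold change, Mc5r-null over WT, was -0.0062 for the members and -0.0048 for all genes. The 3 Mc5r-null libraries did not overlap with the 3 WT libraries for 14 members (53.8%), and for 48.1% of all genes. The 5 of these members that did not pass the test were Ccl6, Cxcl2 and Ccr7, lower in every Mc5r-null library, and Ccl27a and Xcl1, higher in every Mc5r-null library. Among genes that passed, the median size of the log2 fold change was 0.95 for members and 0.36 for all genes. The member value rests on 9 genes and was not matched for counts, and genes with few counts pass only with large changes. The abundant Ccl3, Ccl4, Cxcr4 and Ccl9 had sizes of 0.17 to 0.66, and the called members with fewer counts 0.95 to 1.31. Of the 16 tested ligands 3 were higher and 2 lower, and of the 10 tested receptors 1 was higher and 3 were lower.

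**Figure D2:**
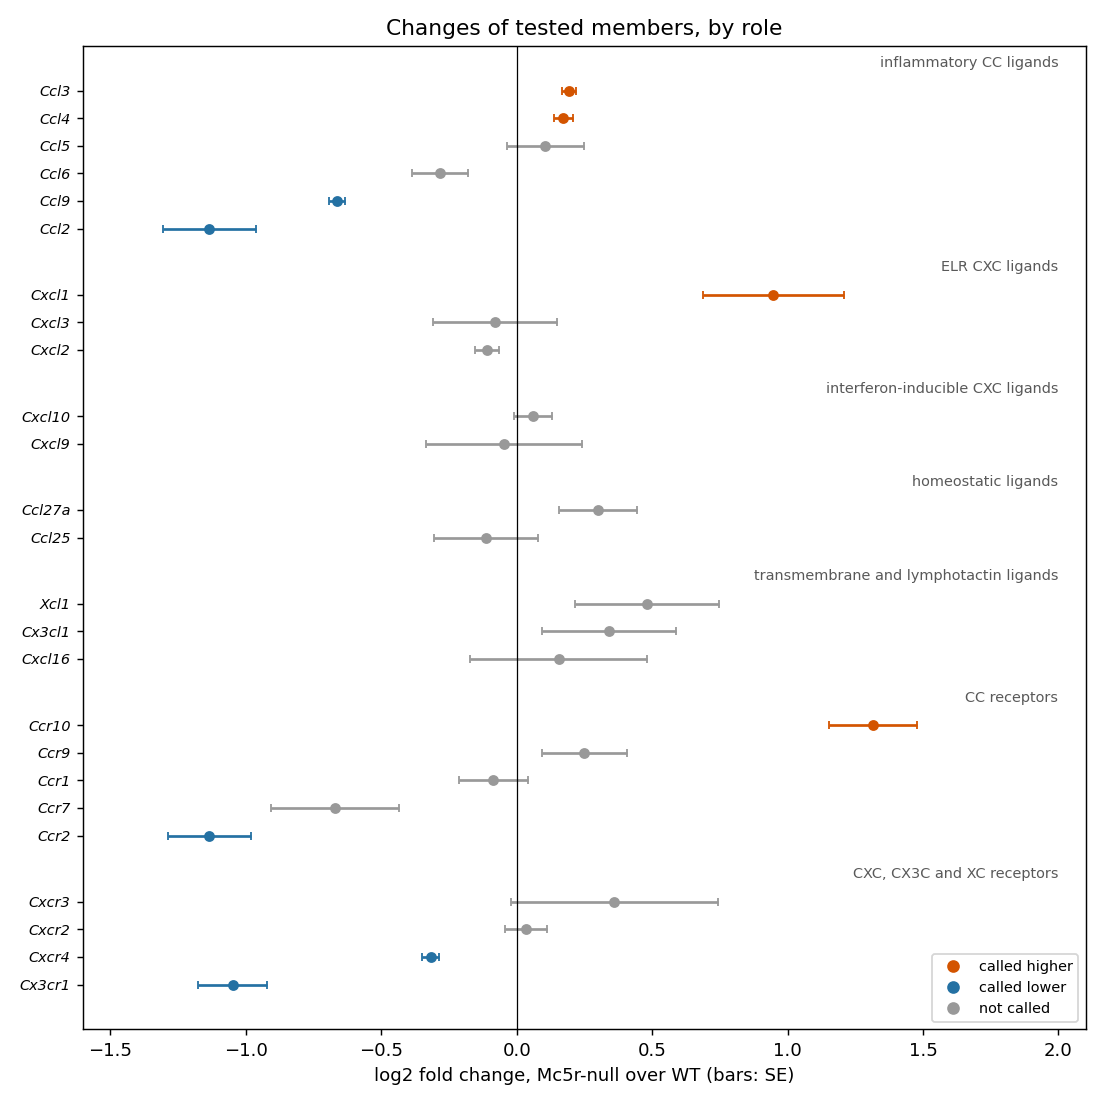
Log2 fold change of tested members, Mc5r-null over WT, by role, with bars of 1 SE and colour for an adjusted p under 0.05. The 4 higher members run from 0.17 (Ccl4) to 1.31 (Ccr10) and the 5 lower ones from -0.32 (Cxcr4) to -1.14 (Ccl2).

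The inflammatory CC ligands moved in both directions. Of the 13 listed, 6 were tested, of which 2 were higher and 2 lower in Mc5r-null, and their median log2 fold change was -0.09. Ccl3 (ENSMUSG00000000982, GRCm38 chromosome 11, positions 83647844 to 83649355), also called MIP-1 alpha and a ligand of Ccr1, had 159, 153 and 155 normalised CPM in the Mc5r-null libraries and 137, 135 and 137 in the WT libraries. The ranges were apart and the difference was small, 1.14-fold higher in Mc5r-null (log2 0.19 ± 0.03 SE, adjusted p = 0.000844). Ccl4 (ENSMUSG00000018930, positions 83662584 to 83664683), MIP-1 beta, which attracts monocytes and lymphocytes, lies beside it and had 86.0, 87.3 and 87.9 normalised CPM in Mc5r-null and 78.4, 74.6 and 78.8 in WT. It too was higher in every Mc5r-null library, by 1.13-fold (log2 0.17 ± 0.04 SE, adjusted p = 0.00701), and DESeq2 did not call it (adjusted p = 0.0640).

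Ccl9 (ENSMUSG00000019122, chromosome 11, positions 83572919 to 83578636), a mouse ligand of Ccr1 made by myeloid cells, had 92.1, 89.4 and 92.8 normalised CPM in Mc5r-null and 144, 144 and 146 in WT. Replicates differed by a few percent and the genotypes were far apart, with Ccl9 1.58-fold lower in Mc5r-null (log2 -0.66 ± 0.03 SE, adjusted p = 7.35e-07). Its neighbour Ccl6 (ENSMUSG00000018927), another mouse ligand of Ccr1, had 8.64, 8.94 and 7.86 normalised CPM in Mc5r-null and 11.1, 9.40 and 10.5 in WT. All Mc5r-null libraries were lower, yet the test was not passed (log2 -0.28 ± 0.10 SE, adjusted p = 0.0667), and the adjusted p lay between 0.0511 and 0.296 over the 15 alternative settings tried. Ccl2 (ENSMUSG00000035385, chromosome 11, positions 82035571 to 82037453), MCP-1, the ligand that draws Ccr2-bearing monocytes, was measured from few reads. It had 47, 38 and 29 counts in Mc5r-null and 88, 89 and 96 counts in WT, or 2.74 ± 0.647 and 6.03 ± 0.290 normalised CPM (SD, n = 3 each). No library of one genotype reached the range of the other, and Ccl2 was 2.20-fold lower in Mc5r-null (log2 -1.14 ± 0.17 SE, adjusted p = 0.00139). Ccl5, RANTES, which attracts T cells, had 4.03, 3.75 and 4.68 normalised CPM in Mc5r-null and 3.71, 3.64 and 4.24 in WT, with overlapping groups (log2 0.11 ± 0.14 SE, adjusted p = 0.633).

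These genes share 1 region of chromosome 11, in which the order of the genes and the direction of the changes can be set side by side. From Ccl2, the untested Ccl7, Ccl11, Ccl12, Ccl8 and Ccl1 follow within 141 kb. About 1490 to 1627 kb from Ccl2 stand Ccl5, Ccl9, Ccl6, Ccl3 and Ccl4. The lower Ccl9 stands between Ccl5 and Ccl6, which were not called, although Ccl6 too was lower in every Mc5r-null library.

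**Figure D3:**
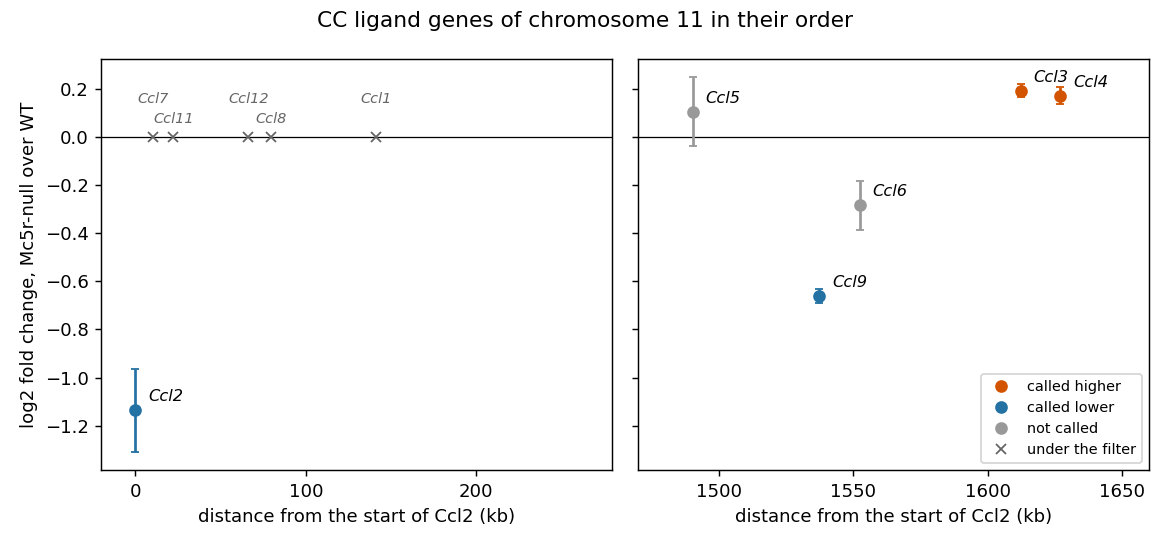
Log2 fold change, Mc5r-null over WT, of the CC ligand genes of chromosome 11 by distance from the start of Ccl2 in kb, with bars of 1 SE. Crosses on the zero line are genes under the count filter and have no fold change. Ccl2 at -1.14 and Ccl9 at -0.66 are lower, and Ccl3 at 0.19 and Ccl4 at 0.17 are higher.

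The 100 bases before the starts of Ccl9 and Ccl6 are shown because these neighbouring, similar genes differed in whether they passed the test. They are from the RefSeq promoter table (build GRCm38.p6), at chr11:83578637-83578736 for Ccl9 and chr11:83593088-83593187 for Ccl6, both on the minus strand. Sequences are written 5′ to 3′, and capitals mark the longest run of letters that the windows before these genes share.
Ccl9: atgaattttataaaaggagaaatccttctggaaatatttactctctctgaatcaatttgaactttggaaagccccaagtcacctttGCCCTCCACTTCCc
Ccl6: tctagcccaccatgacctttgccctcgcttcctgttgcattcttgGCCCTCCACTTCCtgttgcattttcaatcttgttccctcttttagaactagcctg
The shared run of 13 bases starts at -14 in Ccl9 and at -55 in Ccl6, where -1 is the base before the start. In the 250 bases before each start the run is found on either strand in 5 of 32851 windows of the table (0.0152%). The best local alignment of the windows was 31 columns long with 80.6% identity and 3 gaps. It paired -31 to -2 of Ccl9 with -97 to -69 of Ccl6, so it did not include the marked run of Ccl6. These are descriptions of letters, and no factor was measured at either gene.

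Most myeloid markers were lower in Mc5r-null libraries, as were Ccl2 and Ccl9, while Ccl3 and Ccl4 were higher. For this and the other marker lists, the shares over all genes tested were 16.0% lower and 16.7% higher. Of the 12 listed monocyte and macrophage markers 11 were tested, of which 8 were lower, among them Csf1r and Cd14, and C1qa was higher in Mc5r-null. C1qa reached the limit of 10 counts in no WT library, so that it passed the filter through Mc5r-null libraries alone. C1qb (log2 0.967 ± 0.401 SE) and Mrc1 (log2 0.427 ± 0.166 SE) were not called, yet both were higher in every Mc5r-null library after scaling. The untested C1qc had 11, 8 and 18 counts in Mc5r-null and 9, 4 and 5 in WT, which overlapped. Adgre1, Cd68 and Vcam1 were among the lower markers, so the list did not move in 1 direction. The summed level of the list was 741 to 777 normalised CPM in Mc5r-null and 1028 to 1131 in WT, and none was at 0 in every library. For basophils and mast cells all 8 tested of 9 listed markers were lower, with sums of 173 to 179 in Mc5r-null and 423 to 429 in WT, and Cd200r3 among them reached 10 counts in 1 Mc5r-null library. For neutrophils 5 of 9 were lower and 2, Mmp8 and Retnlg, were higher, with sums of 2886 to 2933 in Mc5r-null and 3781 to 4072 in WT. Their part in the result was not tested for Ccl2, Ccl9 or the receptors of myeloid cells described next.

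Among the ELR CXC ligands, which attract neutrophils through Cxcr2, Cxcl1 was higher and its neighbour Cxcl2 did not pass the test. Of 5 listed, 3 were tested, and their median log2 fold change was -0.08. Cxcl1 (ENSMUSG00000029380, GRCm38 chromosome 5, positions 90891241 to 90893115) had 28, 18 and 27 counts in Mc5r-null and 13, 12 and 16 in WT. The groups did not overlap, and Cxcl1 was 1.93-fold higher in Mc5r-null (log2 0.95 ± 0.26 SE, adjusted p = 0.0241). At these low counts the call was lost with DESeq2 (adjusted p = 0.143) and on leaving out Mc5r-null replicate 1 (0.0768) or 3 (0.0705) or WT replicate 1 (0.0647) or 2 (0.0706). Cxcl2 (ENSMUSG00000058427, chromosome 5, positions 90903871 to 90905938), far more abundant, had 93.9, 87.5 and 84.2 normalised CPM in Mc5r-null and 95.4, 94.0 and 97.5 in WT. Its groups were separated by a narrow gap (log2 -0.11 ± 0.04 SE, adjusted p = 0.0918), and it was called when Mc5r-null replicate 1 was left out (adjusted p = 0.0248). Cxcl3 had 20, 20 and 26 counts in Mc5r-null and 24, 31 and 21 in WT, which overlapped (log2 -0.08 ± 0.23 SE).

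The 250 bases before the RefSeq starts of Cxcl1 and Cxcl2 are shown because these duplicated genes stand side by side and gave different calls. They come from RefSeq (GRCm38.p6), at chr5:90890995-90891244 for Cxcl1 and chr5:90903649-90903898 for Cxcl2, both on the plus strand. The RefSeq starts lie inside the genes as the deposited table gives them, so that the windows hold the first 4 bases of Cxcl1 and the first 28 of Cxcl2 in that table. Capitals mark the longest run of letters that these windows share.
Cxcl1: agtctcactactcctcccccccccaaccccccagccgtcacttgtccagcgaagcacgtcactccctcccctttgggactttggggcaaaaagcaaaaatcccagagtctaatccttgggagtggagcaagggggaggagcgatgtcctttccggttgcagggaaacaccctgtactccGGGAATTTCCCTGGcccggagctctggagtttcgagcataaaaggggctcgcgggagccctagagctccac
Cxcl2: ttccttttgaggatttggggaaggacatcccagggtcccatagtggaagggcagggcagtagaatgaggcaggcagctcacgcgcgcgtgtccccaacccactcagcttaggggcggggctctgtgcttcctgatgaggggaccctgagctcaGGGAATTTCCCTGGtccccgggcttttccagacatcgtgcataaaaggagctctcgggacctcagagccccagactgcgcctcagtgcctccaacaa
The run GGGAATTTCCCTGG of 14 bases starts at -71 in Cxcl1 and at -97 in Cxcl2. Among the 32851 promoter windows of 250 bases in the table, 2 hold this run on either strand, those of Cxcl1 and Cxcl2. Their best local alignment spans 121 columns with 72.7% identity and 9 gaps. Of the 26 tested members, 19 have an entry in the table.

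The interferon-inducible ligands, which attract T and NK cells through Cxcr3, gave no call. Cxcl10 (ENSMUSG00000034855) had 55.5, 62.5 and 54.1 normalised CPM in Mc5r-null and 56.3, 50.7 and 58.0 in WT. The groups overlapped throughout (log2 0.06 ± 0.07 SE, adjusted p = 0.560). Cxcl9 had 12, 11 and 9 counts in Mc5r-null and 14, 10 and 12 in WT (log2 -0.05 ± 0.29 SE). The untested Cxcl11 had at most 7 counts in a library.

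Among the homeostatic ligands, which direct lymphocytes and stem cells in the steady state, 2 of 21 rows were tested and neither was called. Ccl25, the thymus and gut ligand of Ccr9, had 28 to 43 counts in Mc5r-null and 41 to 47 in WT (log2 -0.11 ± 0.19 SE). Ccl27a, the skin ligand of Ccr10, had 48 to 54 counts in Mc5r-null and 40 to 48 in WT at its chromosome 4 row. After scaling its groups did not overlap, without passing the test (log2 0.30 ± 0.14 SE, adjusted p = 0.158). Copies of Ccl27a, Ccl19 and Ccl21 on unplaced scaffolds can share reads with these rows, so their counts are uncertain. None of the 3 transmembrane and lymphotactin ligands passed the test. The log2 fold change was 0.34 ± 0.25 SE for Cx3cl1 (fractalkine, the Cx3cr1 ligand), 0.15 ± 0.33 SE for Cxcl16 (the Cxcr6 ligand, with 17, 12 and 14 counts in Mc5r-null and 20, 10 and 12 in WT) and 0.48 ± 0.27 SE for Xcl1 (lymphotactin, the Xcr1 ligand). Xcl1 had 17, 14 and 14 counts in Mc5r-null and 10, 14 and 11 in WT, higher in each Mc5r-null library after scaling (adjusted p = 0.244).

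Among the CC receptors, Ccr10 was higher and Ccr2 lower in Mc5r-null, and no other passed. Ccr10 (ENSMUSG00000044052, GRCm38 chromosome 11, positions 101172997 to 101175443), the receptor of Ccl27 and Ccl28 that is known from IgA plasma cells, had 89, 123 and 113 counts in Mc5r-null and 41, 49 and 52 in WT. Its level was 7.81 ± 1.26 normalised CPM in Mc5r-null and 3.13 ± 0.377 in WT (SD, n = 3 each). Every Mc5r-null library lay above every WT library, and the gene was 2.49-fold higher (log2 1.31 ± 0.16 SE, adjusted p = 0.00046). All 9 plasma cell markers were higher in Mc5r-null, with summed levels of 37241.5 to 39966 normalised CPM in Mc5r-null and 11400.9 to 11489.5 in WT. Igha alone averaged 18161 normalised CPM in Mc5r-null and 4889 in WT, and no listed plasma cell marker was at 0. The part of plasma cell RNA in the result was not tested.

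Ccr2 (ENSMUSG00000049103, chromosome 9, positions 124101950 to 124113557), the Ccl2 receptor of classical monocytes, had 14.9, 19.5 and 19.5 normalised CPM in Mc5r-null and 32.5, 41.7 and 44.2 in WT. The lowest WT library was well above the highest Mc5r-null library, and Ccr2 was 2.20-fold lower (log2 -1.13 ± 0.15 SE, adjusted p = 0.00218). Ccr1, the receptor of Ccl3, Ccl6 and Ccl9, had 6.27, 7.28 and 8.22 normalised CPM in Mc5r-null and 7.28, 8.41 and 7.42 in WT. Its groups overlapped and the means differed by less than the spread in Mc5r-null (log2 -0.09 ± 0.13 SE, adjusted p = 0.650).

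Ccr7, which guides T cells and dendritic cells to lymph nodes, had 16, 20 and 17 counts in Mc5r-null and 39, 26 and 27 in WT. Its groups did not overlap and it narrowly missed the threshold (log2 -0.67 ± 0.24 SE, adjusted p = 0.0610). Ccr9, the Ccl25 receptor of lymphoid progenitors, had 66 to 87 counts in Mc5r-null and 60 to 78 in WT (log2 0.25 ± 0.16 SE, adjusted p = 0.261).

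Of the CXC, CX3C and XC receptors 4 of 8 were tested, and 2 were lower in Mc5r-null. Cxcr4 (ENSMUSG00000045382, GRCm38 chromosome 1, positions 128588199 to 128592293), the Cxcl12 receptor that retains stem cells in marrow, had 96.0, 94.4 and 96.9 normalised CPM in Mc5r-null and 122, 119 and 116 in WT. The genotypes were apart by several times their spread, and Cxcr4 was 1.25-fold lower in Mc5r-null (log2 -0.32 ± 0.03 SE, adjusted p = 0.000145). The LSK markers went the other way, with 6 of 8 higher, none lower, and summed levels of 1650 to 1669 normalised CPM in Mc5r-null and 1295 to 1328 in WT. Cx3cr1 (ENSMUSG00000052336, chromosome 9, positions 119901616 to 120069879), the fractalkine receptor of non-classical monocytes and macrophages, had 71, 56 and 58 counts in Mc5r-null and 147, 127 and 143 in WT. It averaged 4.44 ± 0.584 normalised CPM in Mc5r-null and 9.20 ± 0.700 in WT (SD, n = 3 each). The ranges were apart and the gene was 2.07-fold lower (log2 -1.05 ± 0.13 SE, adjusted p = 0.000421). Cxcr2, the neutrophil receptor of the ELR ligands, had 12.39, 12.55 and 11.96 normalised CPM in Mc5r-null and 11.78, 11.92 and 12.32 in WT, with overlapping groups (log2 0.03 ± 0.08 SE, adjusted p = 0.794). Cxcr3, which is X-linked, had 16 to 25 counts in Mc5r-null and 8 to 25 in WT (log2 0.36 ± 0.38 SE, adjusted p = 0.516).

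**Figure D4:**
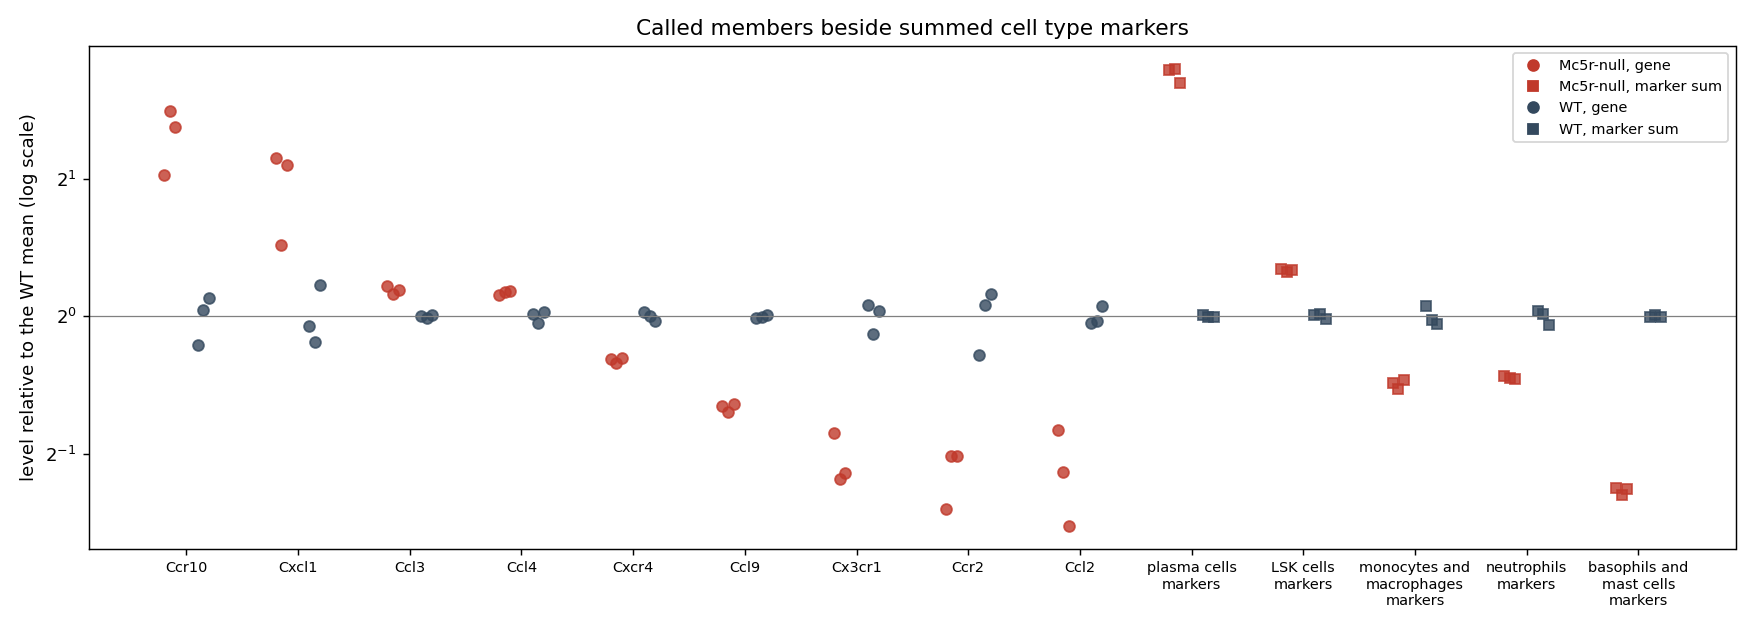
Level of the 9 called members (circles) and summed level of marker lists (squares) in each library, relative to the WT mean on a log axis, Mc5r-null left of WT. In all Mc5r-null libraries Ccr10, Cxcl1, Ccl3, Ccl4 and the sums of plasma cell and LSK markers are above the WT mean, and Cxcr4, Ccl9, Cx3cr1, Ccr2, Ccl2 and the sums of monocytes and macrophages, of neutrophils and of basophils and mast cells are below it.

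Of the 45 members listed as not expressed, 20 had 0 counts in every library, 13 reached at most 1 to 3 counts, 9 reached 4 to 9, and 3 reached 10 or more. Those at 0 were Ccl1, Ccl8, Ccl11, Ccl12, Ccl17, Ccl20, Ccl26, Cxcl13, Cxcl17, both rows of Ccl19, all rows of Ccl21a, Ccl21b, Ccl21c and Ccl21d, Ccl19-ps3 and 1 scaffold row of Ccl27a. Cxcl12 (ENSMUSG00000061353), the niche ligand of Cxcr4, had 17, 9 and 8 counts in Mc5r-null and 3, 0 and 1 in WT. Each Mc5r-null library held more than any WT library. The ratio of the sums, scaled by the library sizes after TMM, was 9.25 (95% interval 3.30 to 35.9, counting error only). It failed the count filter, and with no filter it was called higher (log2 3.09 ± 0.68 SE, adjusted p = 0.00515). Of 12 listed stroma and endothelium markers 8 were tested, of which 5 were called higher in Mc5r-null and none was called lower. The endothelial genes Kdr, Stab2 and Emcn were among the higher ones. Cdh5, also endothelial, had 41, 44 and 45 counts in Mc5r-null and 42, 39 and 33 in WT. It was not called (log2 0.31 ± 0.16 SE, adjusted p = 0.184). Kdr and Stab2 reached 10 counts in 1 WT library each. The summed level of the list was 102 to 105 normalised CPM in Mc5r-null and 69.3 to 76.5 in WT. Most of it was Pdgfrb, which averaged 76.4 in Mc5r-null and 58.9 in WT. Of the stromal markers, Pdgfrb had 1054, 1077 and 1049 counts in Mc5r-null and 940, 857 and 871 in WT, and Sparc had 93, 77 and 78 in Mc5r-null and 25, 26 and 32 in WT, and both were called higher. Col1a1 had 4, 8 and 5 counts in Mc5r-null and 12, 11 and 18 in WT. It was lower in every Mc5r-null library without passing the test (log2 -1.13 ± 0.39 SE, adjusted p = 0.0554). Col1a2, which was not called either, had at most 13 counts in a Mc5r-null library and 17 in a WT library. Lepr, Col3a1 and Adipoq were at 0 in every library and Kitl reached at most 2 counts. The part of these cells in the Cxcl12 counts was not tested.

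None of the 4 atypical receptors was tested. Ackr1, the Duffy antigen of venular endothelium and red cells, had 6, 10 and 16 counts in Mc5r-null and 2, 0 and 6 in WT, a ratio of sums of 4.35 (95% interval 1.96 to 10.9). All 8 erythroid markers were higher in Mc5r-null, with sums of 171 to 172 normalised CPM in Mc5r-null and 25.8 to 26.8 in WT, and their part in this was not tested. Among them Alas2 passed the filter through Mc5r-null libraries alone. Ackr3, which takes up Cxcl12, had 6, 6 and 9 counts in Mc5r-null and 9, 10 and 19 in WT, a ratio of 0.602 (0.335 to 1.05). Xcr1, the receptor of cross-presenting dendritic cells, had 3, 3 and 2 counts in Mc5r-null and 7, 8 and 6 in WT, a ratio of 0.415 (0.159 to 0.974). All 5 tested of 6 listed dendritic cell markers were lower in Mc5r-null, with sums of 96.4 to 99.8 normalised CPM in Mc5r-null and 117 to 120 in WT. Among them Clec9a passed the filter through WT libraries alone, and Cd209a reached 10 counts in 1 Mc5r-null library. Without the filter none of Ackr1, Ackr3 and Xcr1 passed (adjusted p = 0.0629, 0.278 and 0.128).

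Ccl28, the mucosal ligand of Ccr10, had 8, 0 and 0 counts in Mc5r-null and 7, 6 and 7 in WT. Ccr3, the eosinophil receptor, had 7, 5 and 2 counts in Mc5r-null and 0, 2 and 4 in WT. Cxcr1 had 4, 5 and 5 counts in Mc5r-null and 3, 3 and 1 in WT, and Cxcr5, the Cxcl13 receptor of B cells, had 2, 4 and 4 in Mc5r-null and 4, 5 and 5 in WT. At this depth no difference was detectable for these 4. The highest count in any library was 5 for Ccr8 and Cxcr6, 4 for Ccl24, 3 for Ccl7, Ccr4, Ackr2 and the other scaffold row of Ccl27a, 2 for Ccr6, Ccl27b, Cxcl5 and Cxcl15, and 1 for Ccl22, Cxcl14, Ccr1l1, Ackr4 and Ccl19-ps1.

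**Figure D5:**
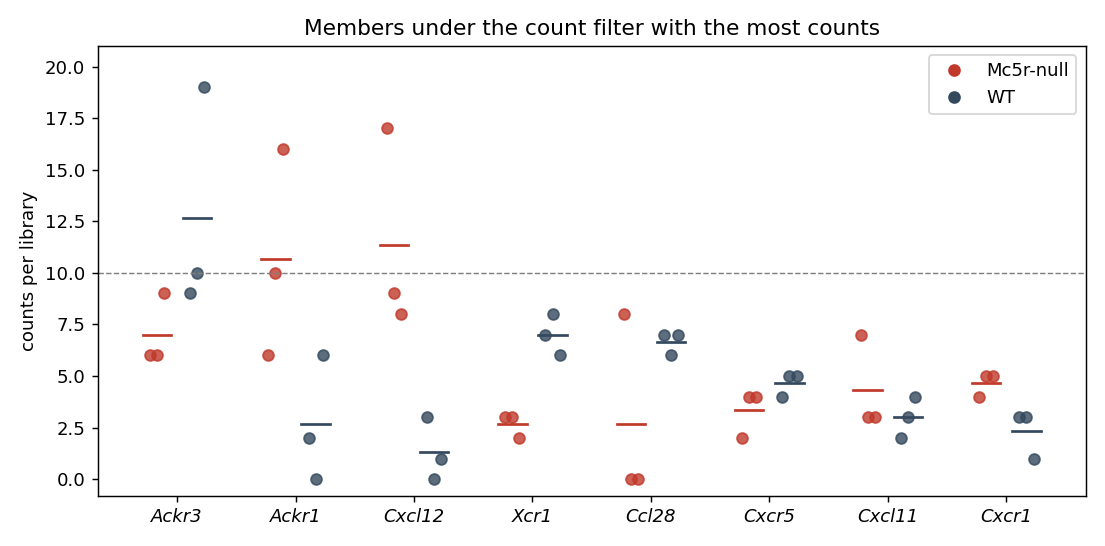
Counts per library of the 8 members under the count filter with the most counts, Mc5r-null left of WT, with a bar at each mean and a dashed line at 10 counts. Cxcl12 lies at 8 to 17 in Mc5r-null and at 0 to 3 in WT, while Xcr1 lies at 2 to 3 in Mc5r-null and at 6 to 8 in WT.

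Related genes outside the naming pattern were measured as well. Of 9 listed, 5 were tested and all passed, 1 higher and 4 lower in Mc5r-null, where 32.8% of all genes tested passed. Their median log2 fold change was -0.25. Pf4 (Cxcl4), a platelet chemokine, had 22, 37 and 39 counts in Mc5r-null and 81, 65 and 76 in WT. It was lower in every Mc5r-null library (log2 -1.05 ± 0.21 SE, adjusted p = 0.00577). Of 7 listed megakaryocyte and platelet markers 4 were tested, 1 higher and none lower, with sums of 128 to 130 normalised CPM in Mc5r-null and 107 to 112 in WT, and their part in the Pf4 result was not tested. Cd74, a receptor subunit for Mif, was higher (log2 0.89 ± 0.11 SE, adjusted p = 0.00388). Mif (log2 -0.18, adjusted p = 0.000557), the chemerin-binding Ccrl2 (log2 -0.25, adjusted p = 0.0116) and Dpp4, a protease that trims and inactivates Cxcl12 (log2 -0.33, adjusted p = 0.002), were lower. With DESeq2 the Ccrl2 call was lost (adjusted p = 0.0505).

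Of 20 listed genes that relay chemokine receptor signals to migration, 19 were tested. Of these, 4 were higher and 8 lower, against 16.7% and 16.0% of all genes tested, and their median log2 fold change was -0.05. The largest change was in Rac1, a GTPase that drives the leading edge, with 1394, 1234 and 1372 counts in Mc5r-null and 4740, 4683 and 4744 in WT. It was 3.25-fold lower in Mc5r-null (log2 -1.70 ± 0.04 SE, adjusted p = 3.21e-08), while Rac2, the form of blood cells, differed by log2 -0.09 (adjusted p = 0.0145). The PI3K-gamma adaptor Pik3r6 (log2 -0.73, adjusted p = 0.000609), the exchange factor Vav1 (log2 -0.16, adjusted p = 0.00168) and the phospholipase Plcb2 (log2 -0.13, adjusted p = 0.00318) were lower. With DESeq2 the Plcb2 call was lost (adjusted p = 0.0750). Dock2, the Rac exchange factor of lymphocytes, was higher (log2 0.17, adjusted p = 0.000305).

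Among 14 listed desensitisation genes, all tested, 1 was higher and 3 lower, against 16.7% and 16.0% of all genes tested. Their median log2 fold change was -0.08. The regulator of G-protein signalling Rgs3 was higher (log2 0.72, adjusted p = 0.00103). The lower genes were Rgs18 (log2 -0.26, adjusted p = 0.00139), the receptor kinase Grk2 (log2 -0.13, adjusted p = 0.00528) and Rgs2 (log2 -0.11, adjusted p = 0.0101). With DESeq2 the calls of Grk2 (adjusted p = 0.0785) and Rgs2 (adjusted p = 0.151) were lost. Arrb1, beta-arrestin 1, had 224, 218 and 210 counts in Mc5r-null and 1281, 249 and 337 in WT. WT replicate 1 stood apart from the other 5 libraries, and the gene was not called (adjusted p = 0.251).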

How the data were processed

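Poly-A RNA was sequenced with a stranded kit, per the labels' protocols. The authors deposited whole-number counts per gene, not normalized, and FPKM values beside them. The submitters' processing notes name CASAVA 1.8, HISAT2, StringTie, edgeR and build GRCm38, and the counting program and its use of strand are not given in the sources used here. Of the 26 tested members 7 overlap exons of another gene (Ccl25, Ccl27a, Ccr9, Cx3cr1, Cxcl10, Cxcl16 and Xcl1), so their reads may be mixed. Summed over libraries, Elavl1, which overlaps Ccl25, had 6403 counts in Mc5r-null and 7224 in WT. Il11ra1, which overlaps Ccl27a, had 1670 in Mc5r-null and 1731 in WT. The genes that overlap the others had at most 31 in either genotype.

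The deposited FPKM imply lengths over 5% above the merged exons for 19 of the 26 tested members (5156 against 2068 bases for Cxcl2), so levels of different genes use merged exons of GENCODE release M21 in place of FPKM. Counts were tested in R 4.3.3 with edgeR 4.0.16 (robust quasi-likelihood F-test, TMM, at least 10 counts in 3 libraries, Benjamini-Hochberg over all genes, adjusted p under 0.05). Alternatives were other scalings and filters, DESeq2 1.42.0, limma-voom (limma 3.58.1), omission of immunoglobulin genes, a replicate block, other thresholds and leaving out each library. Intervals for low counts are exact 95% intervals of a ratio of sums scaled by the library sizes after TMM, for counting error only. The tested members are named except 1, whose values are not reported here though counts and medians over members include it, with values per library for those called and those of highest level, and up to 5 called genes by smallest p from each pathway list. Members and lists were chosen with earlier results of these data known. Summed over genes, pairs of replicates of a genotype differed beyond counting noise, so none held the same counts as another. A few variable genes can carry such a sum, so it cannot tell separate mice or preparations from repeat sequencing.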

Additional observations from a re-analysis of the deposited data

How the results depend on the processing

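Ccl2, Ccl3, Ccl9, Ccr2, Ccr10, Cx3cr1 and Cxcr4 kept their direction and their call under all 15 alternative settings, and no called member changed sign. The members called higher numbered 4, but 2 with DESeq2, which lost Ccl4 and Cxcl1, and 5 with no filter, which added Cxcl12. The members called lower numbered 5, but 8 at an adjusted p under 0.1. Over the fits that leave out 1 library, 3 to 4 members were higher and 5 to 6 lower. Of all genes, 2564 were called higher, against 1654 with DESeq2 and 1549 at an adjusted p under 0.01, and 2463 lower, against 1445 and 1452. Equal replicate numbers did not deviate together (correlations of 0.0177, -0.0320 and -0.0236), and with the replicate block 4 members were higher and 5 lower, with 2247 and 2149 of all genes. With DESeq2, 2 receptor signalling genes were higher and 3 lower, against 4 and 8, and 1 desensitisation gene was lower, against 3. Without Mc5r-null replicate 1, 2 desensitisation genes were higher, against 1. The causes were not tested. Cxcl1 and Ccr7 had at most 28 and 39 counts in a library.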
